A study of Mus musculus with 57 samples.

Results

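G protein alpha subunits and RGS proteins were followed at the RNA level in CD11b-positive cells of mouse brain. The 10 genes were taken by symbol from both count tables: the alpha subunits Gnai1, Gnai2, Gnai3 and Gnas, and the regulators of G protein signalling Rgs1, Rgs2, Rgs10, Rgs14, Rgs16 and Rgs18. They are 10 of 50565 genes in the table of the sex experiment and 10 of 53278 in that of the LPS experiment, and all 10 passed the filter on low counts in both. The animals were adult wild-type mice (WT) and littermates deficient in P2RY12 (KO), and the labels give no strain. The sex experiment held 4 male WT (MWT), 5 male KO (MKO), 4 female WT (FWT) and 5 female KO (FKO) animals. In the LPS experiment mice received 1 mg/kg of lipopolysaccharide, an inflammatory molecule of the bacterial outer membrane, into the peritoneum. Its other libraries are labelled ns, which the labels do not define, and no sex is given there. They also do not say whether its libraries are separate animals, so p-values measure the spread between these libraries.

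Receptors of the G protein-coupled family act through heterotrimers in which the alpha subunit binds GTP when the receptor is occupied and GDP at rest. P2RY12, an ADP receptor by which microglia extend processes towards injured tissue, couples to the Gi class, whose alpha subunits inhibit adenylyl cyclase. Gs alpha, the main product of Gnas, stimulates the same enzyme. RGS proteins speed the hydrolysis of GTP by alpha subunits and so end the signal. Rgs10 is well known for its abundance in microglia and for restraining inflammatory activation there.

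The fit of the LPS experiment used 6 WT ns, 6 WT LPS, 8 KO ns and 8 KO LPS samples. It left out the 4 WT libraries of library number 2, which are shown apart, and counted WT LPS 8 and WT LPS 9 as 1 sample, WT LPS 8+9, because their counts were far closer than those of any other pair (chi-square per degree of freedom of 1.86 against 8.32 or more). Totals were 58.5 to 318.5 M counts (M standing for mega) in the sex experiment. In the LPS experiment, whose library names fall into 2 sets, they were 15.9 to 45.3 M, except 168.4 M in WT ns 4. P2ry12 lay between 3007 and 5928 CPM (a count relative to each M of its library, after TMM, a correction for library composition) in WT animals of the sex experiment and between 309.3 and 526.4 in KO animals. In the LPS fit it was 3516 to 5406 CPM in WT ns, 400.3 to 1063 in WT LPS, 585.2 to 1243 in KO ns and 84.2 to 154.1 in KO LPS. The microglial genes Tmem119 and Sall1 had counts in every library of both experiments.

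Several libraries stood apart. On the first principal component of all genes, which held 41.8% of the variance of the LPS experiment, WT ns 5, WT LPS 6, WT LPS 7, KO ns 5, KO ns 6 and KO LPS 5 lay between 78.4 and 186.9, and the other 26 samples between -65.1 and -7.64. Mitochondrial transcripts took 2.69% to 8.55% of counts in those 6 and 0.787% to 1.81% in the others. All 6 are of library set 2. The gap was chosen after seeing the data, and 4 of the 6 were in the fit. Results of the LPS experiment are therefore given with and without them. In the sex experiment MWT 5 and FWT 2 had summed CPM of 13 neutrophil markers of 51850 and 31080, against 1503 to 8823 in the other 16 animals. None of these 13 markers was at 0 in any of the 18 animals. Csf3r, 1 of them, was 743 to 1260 CPM over these animals and had a median of 1210 in the LPS experiment. The lower sums are therefore no plain measure of neutrophil content.

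Gnai2, Rgs10 and Rgs2 were the most abundant members once exon length was taken into account. In WT ns samples Gnai2, the main Gi alpha subunit of blood-derived and microglial cells, stood at 205 ± 33.8 CPM per kb of exon (SD, n = 6), and Rgs10 at 191 ± 32.1. Their levels did not differ beyond that spread. Rgs2, which acts mainly on the Gq class, followed at 114 ± 10.8 CPM per kb and Gnai3, a close relative of Gnai2, at 34.0 ± 6.11. Below them came Gnas at 10.5 ± 1.86 CPM per kb and Rgs14, an RGS protein that also binds inactive Gi alpha subunits, at 9.41 ± 4.18. The length used for Gnas, 11186 bases, joins the exons of all its transcripts. Where the mRNA present is shorter, the level of Gnas per kb is understated, so its place in the order is uncertain. Rgs18, a regulator best known from platelets and other blood cells, reached 5.87 ± 4.96 CPM per kb. Neighbours from Gnas to Rgs18 in this order were within the spread of the samples of each other. Rgs16, an inducible RGS protein, was at 0.169 ± 0.0914 and Gnai1, the Gi subunit known from neurons, at 0.0655 ± 0.0432. Rgs1, an RGS protein of leukocytes that curbs chemokine signals, was left out of the order, because its exon length in the annotation used, 6947 bases, exceeds the 4456 bases that the gene spans in the headers of the counts. Counts per library in the LPS fit were 1 to 20 for Gnai1 and 0 to 104 for Rgs16, so that depth limits both. In WT LPS samples Gnai2 was at 181 ± 38.2 CPM per kb, Rgs10 at 89.4 ± 60.6 and Rgs2 at 56.1 ± 29.9 (SD, n = 6). Without the sample that stands apart they were at 195 ± 16.4, 65.2 ± 14.2 and 44.0 ± 4.74 (n = 5). In KO ns samples that do not stand apart Rgs10, at 229 ± 15.7, had a higher mean than Gnai2, at 199 ± 11.1 (n = 6).

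**Figure D1:**
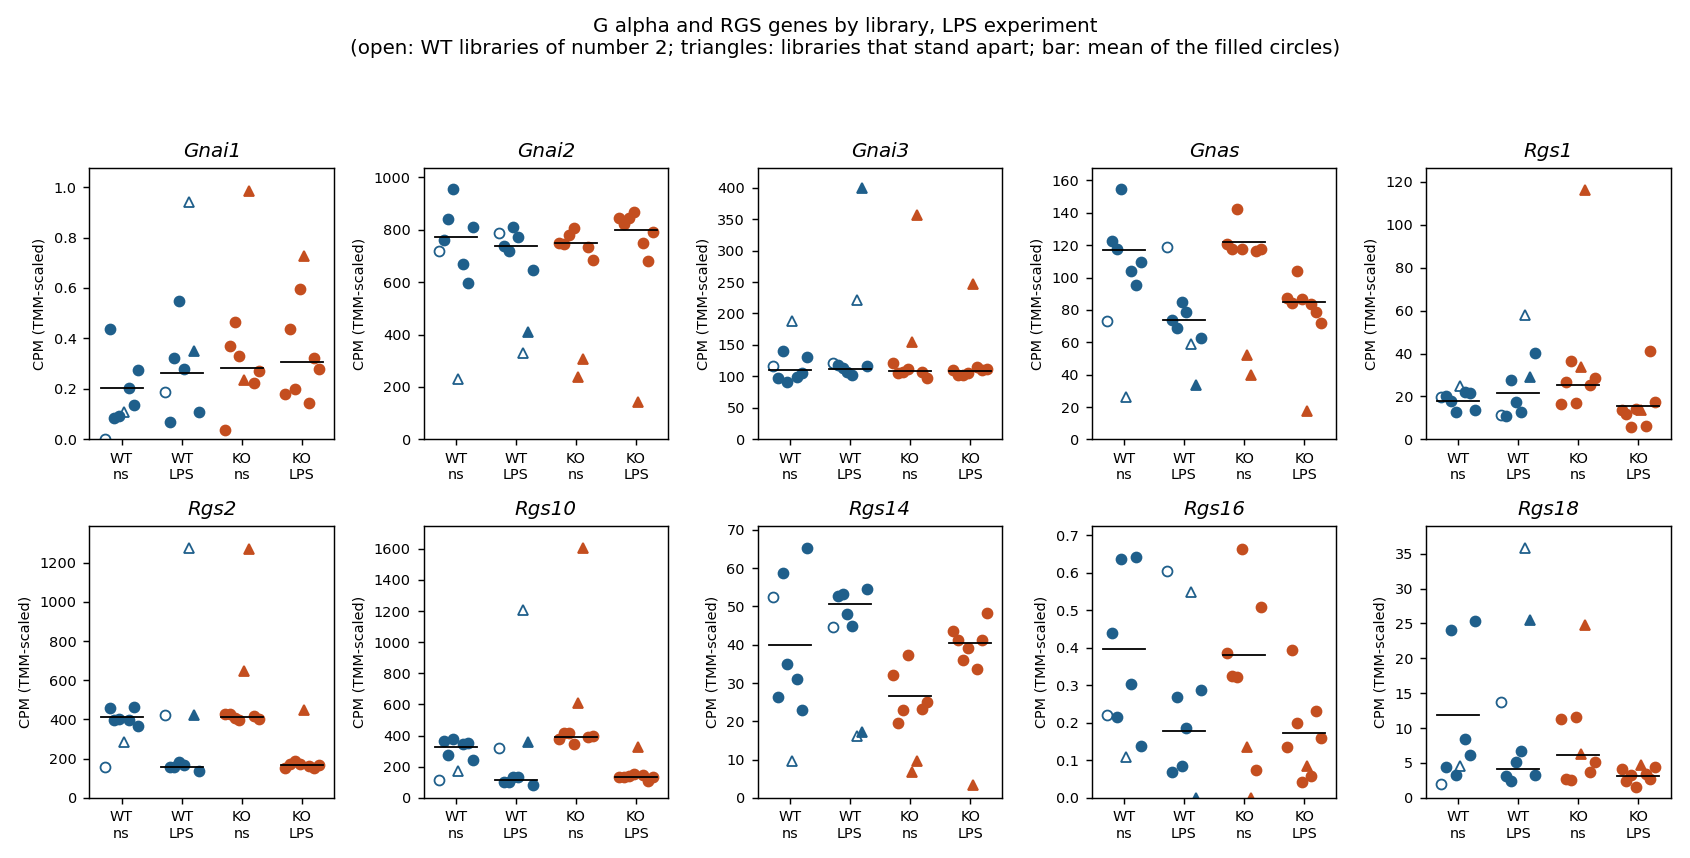
Level of each member in every sample of the LPS experiment, in TMM-scaled CPM on linear axes, by labelled genotype and treatment, with the samples that stand apart and the WT libraries of number 2 marked. Rgs2 and Rgs10 lie lower in LPS than in ns samples of both genotypes once marked samples are set aside, and the WT libraries of number 2 run the other way.

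After LPS, Rgs2 and Rgs10 fell in both genotypes. Of the 10 members, 3 fell and 0 rose in KO mice, where 28.5% of all 16088 genes tested were called at an adjusted p under 0.05. In WT mice 3 fell and 0 rose, beside 30.7% of all genes. A count of 3 of 10 is close to the share called in either direction over all genes and is no result about the family. Of all genes called, 2318 rose and 2269 fell in KO mice, and 2487 rose and 2447 fell in WT mice. The lean of the members towards falls was not tested. In KO mice those that fell were Rgs1, Rgs2 and Rgs10, and in WT mice Gnas, Rgs2 and Rgs10. The median log2 fold change of the 6 RGS members was -1.29 in KO and -0.88 in WT mice, beside 0.01 and 0.03 over all genes. For the 4 alpha subunits the medians were -0.02 and 0.17. When the samples that stand apart were left out, 4 members were called in KO mice, 3 down and Rgs14 up, and 4 in WT mice, all down, beside 54.7% and 54.1% of 16071 genes.

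Gnai2 was high in every group and was not called. It ranged from 595.7 to 956.9 CPM in WT ns (median 786.6), from 410.5 to 812.4 in WT LPS (727.8), from 237.1 to 807.8 in KO ns (740.0) and from 143.0 to 868.5 in KO LPS (807.2), and the groups overlapped throughout. The log2 fold change with LPS was 0.24 ± 0.23 (SE) in KO and -0.14 ± 0.27 in WT mice. It was 0.12 ± 0.07 and -0.07 ± 0.08 without the samples that stand apart. The lowest values of Gnai2 belonged to those samples, at 143.0 to 410.5 CPM against 595.7 to 956.9 in the other 26.

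Gnai3 had medians of 102.2 CPM in WT ns, 115.3 in WT LPS, 109.4 in KO ns and 110.3 in KO LPS. Its log2 fold change with LPS was -0.15 ± 0.29 in KO and 0.51 ± 0.33 in WT mice, and 0.01 ± 0.08 and 0.03 ± 0.09 without the samples that stand apart. It was higher in every one of those 6 samples, at 153.9 to 399.7 CPM, than in any other, where the highest was 139.7. In the same samples Gnai2 was lower than in the others and Gnai3 higher. Gnai1 gave log2 fold changes of 0.10 ± 0.48 in KO and 0.49 ± 0.59 in WT mice, on counts too few to set a direction.

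Gnas had 95.1 to 154.6 CPM in WT ns (median 113.6), 33.3 to 85.0 in WT LPS (71.3), 39.5 to 142.1 in KO ns (117.7) and 17.7 to 104.1 in KO LPS (83.8). The WT groups did not overlap, and the KO groups did. Gnas fell by 0.78 ± 0.26 on the log2 scale in WT mice (adjusted p = 0.0235), while the change in KO mice was -0.38 ± 0.22 (adjusted p = 0.225). With the samples that stand apart left out it fell in both, by 0.67 ± 0.09 in WT (adjusted p = 1.26e-06) and by 0.49 ± 0.08 in KO mice (adjusted p = 1.93e-05), and the ns and LPS ranges of each genotype were separate (116.1 to 142.1 against 72.1 to 104.1 CPM in KO). Within set 1 the change in Gnas was -0.41 ± 0.11 in KO (adjusted p = 0.00568) and -0.76 ± 0.12 in WT mice (adjusted p = 0.000202), and within set 2 -0.35 ± 0.46 (adjusted p = 0.815) and -0.81 ± 0.53 (adjusted p = 0.416). With no filter on low counts the WT value missed the threshold (adjusted p = 0.0558). The Gnas locus makes several transcripts, and the table holds 1 value for all of them.

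Rgs2 fell in both genotypes. In WT ns samples it ranged from 364.1 to 461.3 CPM (median 400.0), and in KO ns from 394.7 to 1270 (423.4). After LPS it ranged from 136.5 to 422.2 CPM in WT (161.0) and from 152.4 to 446.3 in KO mice (169.2). The highest values in WT LPS, KO ns and KO LPS all belonged to samples that stand apart. Rgs2 fell by 1.38 ± 0.28 in KO (adjusted p = 0.000415) and by 1.02 ± 0.32 in WT mice (adjusted p = 0.0167). Without those samples the fall was 1.29 ± 0.07 in KO (adjusted p = 5.56e-13) and 1.37 ± 0.08 in WT mice (adjusted p = 1.71e-12). There, each of the 12 ns samples (364.1 to 461.3 CPM) lay above each of the 12 LPS samples (136.5 to 186.3). Within library set 1 the change in Rgs2 was -1.23 ± 0.08 in KO (adjusted p = 8.46e-08) and -1.31 ± 0.10 in WT mice (adjusted p = 3.08e-07). Within set 2 it was -1.50 ± 0.54 (adjusted p = 0.155) and -0.72 ± 0.62 (adjusted p = 0.554), and did not pass.

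Rgs10 showed the same order of samples. It ranged from 240.7 to 374.7 CPM in WT ns (median 351.1) and from 344.9 to 1603 in KO ns (407.2). After LPS it was 79.5 to 359.8 in WT (119.4) and 110.9 to 323.7 in KO mice (138.3). Rgs10 fell by 1.75 ± 0.33 on the log2 scale in KO (adjusted p = 0.000169) and by 1.12 ± 0.37 in WT mice (adjusted p = 0.0231). Without the samples that stand apart it fell by 1.51 ± 0.12 (adjusted p = 2.27e-10) and by 1.55 ± 0.13 (adjusted p = 1.2e-09), with ns at 240.7 to 417.9 and LPS at 79.5 to 151.6 CPM. Within set 1 the change in Rgs10 was -1.42 ± 0.11 in KO (adjusted p = 3.71e-07) and -1.53 ± 0.13 in WT mice (adjusted p = 1.02e-06), and within set 2 -2.03 ± 0.61 (adjusted p = 0.0837) and -0.67 ± 0.69 (adjusted p = 0.63). Fitted without the set as a covariate, Rgs10 in WT mice missed the threshold (adjusted p = 0.0531). In bulk RNA, fewer cells of a type and less RNA per cell cannot be told apart. The summed CPM of the 12 microglial markers had lower medians after LPS too, at 28080 to 47090 in WT ns (median 40670) and 20960 to 30890 in WT LPS (26800), and at 36770 to 60680 in KO ns (41420) and 26440 to 32520 in KO LPS (29700). P2ry12 is among the 12, and its own medians were 4248 CPM in WT ns and 506.5 in WT LPS. In KO mice they were 653.7 CPM at ns and 98.5 after LPS, so this sum is no plain measure of microglial content. The sum of 10 neuron and glia markers was 73.7 to 93.8 CPM in WT ns, 41.6 to 63.8 in WT LPS, 63.1 to 80.7 in KO ns and 41.3 to 65.5 in KO LPS. The part of either sum in the fall of Rgs2 and Rgs10 was not tested.

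**Figure D2:**
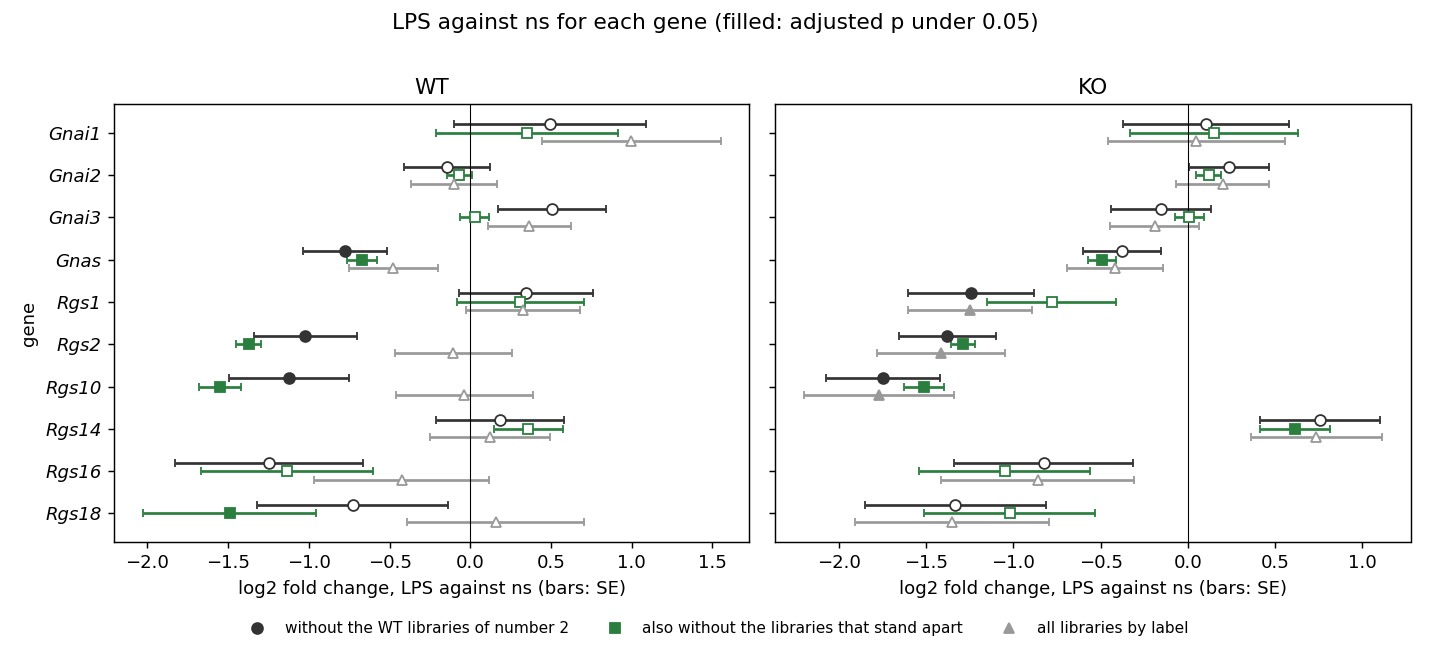
Log2 fold change of LPS against ns for each member in KO and WT mice, with the standard error of the edgeR fit, for the fit without the WT libraries of number 2, without the samples that stand apart, and with all libraries by label. Rgs2 and Rgs10 lie between -1.77 and -1.02 except in WT mice with all libraries by label, where Rgs2 is at -0.11 and Rgs10 at -0.04.

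The promoters of Rgs2 and Rgs10, the members that fell together, are shown because both fell in each genotype. The 250 bases before the start of each gene were read from RefSeq (GRCm38.p6), both on the minus strand and written 5′ to 3′ along the gene, with capitals marking the GC box GGGCGG or its complement CCGCCC, and the CCAAT box on either strand. Rgs2 lies at chr1:144004150-144004399 and Rgs10 at chr7:128418173-128418422.
Rgs2: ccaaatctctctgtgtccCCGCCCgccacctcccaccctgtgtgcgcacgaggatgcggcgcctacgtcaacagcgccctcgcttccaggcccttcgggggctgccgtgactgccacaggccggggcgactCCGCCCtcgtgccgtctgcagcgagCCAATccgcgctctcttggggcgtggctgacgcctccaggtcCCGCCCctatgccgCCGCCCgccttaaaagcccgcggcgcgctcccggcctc
Rgs10: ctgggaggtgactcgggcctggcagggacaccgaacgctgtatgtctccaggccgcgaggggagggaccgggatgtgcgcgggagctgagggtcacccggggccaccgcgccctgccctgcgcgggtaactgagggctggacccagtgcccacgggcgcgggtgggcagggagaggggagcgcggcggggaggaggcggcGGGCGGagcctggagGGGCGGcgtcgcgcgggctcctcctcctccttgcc
Bases G and C made up 72.4% of the Rgs2 window and 76.4% of the Rgs10 window, against a median of 52.4% over all promoters. The Rgs2 window held 4 GC boxes and 1 CCAAT box, and the Rgs10 window 2 GC boxes and no CCAAT box. RefSeq windows of 300 bases were found for 6 of the 10 members, 9 windows in all, since Gnas has several starts, and none was matched for Gnai2, Rgs1, Rgs14 and Rgs18. None of the 9 held the cAMP response element TGACGTCA, the AP-1 site TGANTCA, the GAS element TTCNNNGAA, the ISRE core GAAANNGAA or a kappaB site on either strand. Of 32851 windows in all, 1.79%, 7.81%, 8.3%, 8.56% and 4.51% held these motifs, in that order. The GC box, in 6 of the 9 windows against 35.7% of all, and the CCAAT box, in 4 of the 9 against 37.4%, were searched after the first 5 motifs had given no match. The matches of the CCAAT box in 2 of the Gnas windows are the same site, since these windows overlap. A match is only a run of letters, and its absence says nothing of the factor.

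Rgs1 was called in KO mice alone. It ranged from 12.7 to 22.1 CPM in WT ns (median 19.2), from 10.7 to 40.3 in WT LPS (22.6), from 16.5 to 116.2 in KO ns (27.7) and from 5.76 to 41.0 in KO LPS (13.7), so all groups overlapped. Rgs1 fell by 1.25 ± 0.36 on the log2 scale in KO mice (adjusted p = 0.0102), and its log2 fold change in WT mice was 0.34 ± 0.41 (adjusted p = 0.562). The difference between the genotypes was -1.59 ± 0.55 and was not called (adjusted p = 0.772). Without the samples that stand apart the change in KO mice was -0.78 ± 0.37 and no longer passed (adjusted p = 0.0788). KO ns 6, at 116.2 CPM, is one of these. Within set 1 the change in KO mice was -1.05 ± 0.36 (adjusted p = 0.0319) and within set 2 -1.39 ± 0.62 (adjusted p = 0.265). Among LPS samples of the fit, KO LPS 7 and WT LPS 8+9 had the highest values, 41.0 and 40.3 CPM, with summed CPM of 19 immediate early genes of 1294 and 1514, where the whole experiment spanned 405.9 to 1514. KO ns 6, with the highest Rgs1 of the experiment, had a sum of 510.2, and the library labelled WT LPS 6, outside the fit, had Rgs1 at 57.8 and a sum of 696.8. The part of these genes, which respond within minutes to cell handling, was not tested.

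Rgs14 did not pass in either genotype with all samples of the fit. It ranged from 22.95 to 65.2 CPM in WT ns (median 32.9), from 17.1 to 54.6 in WT LPS (50.3), from 6.85 to 37.2 in KO ns (23.2) and from 3.41 to 48.3 in KO LPS (40.2). Its log2 fold change was 0.76 ± 0.35 in KO (adjusted p = 0.105) and 0.19 ± 0.40 in WT mice (adjusted p = 0.76), and neither passed. Without the samples that stand apart Rgs14 rose by 0.61 ± 0.20 in KO mice (adjusted p = 0.0133), while the value in WT mice was 0.36 ± 0.22 (adjusted p = 0.166). The highest WT ns values, 58.8 CPM in WT ns 3 and 65.2 in WT ns 8, came with the highest neutrophil marker sums of the experiment, 20380 and 18970. With those also left out, a choice made on the marker sums, the value in WT mice was 0.82 ± 0.15 (adjusted p = 0.000136). Taking the highest Rgs14 values out of the ns group alone pushes this value up, so its p is no support for a rise in WT mice. In that fit 5 members were called in KO mice, Gnas, Rgs2, Rgs10, Rgs14 and Rgs18, beside 55.3% of 16188 genes. There were 6 in WT mice, Gnai3, Gnas, Rgs2, Rgs10, Rgs14 and Rgs16, beside 51.3%.

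Rgs18 had medians of 7.24 CPM in WT ns, 4.20 in WT LPS, 5.73 in KO ns and 3.29 in KO LPS. Its highest values in the fit were 25.4 in WT ns 8, 24.1 in WT ns 3, 25.5 in WT LPS 7 and 24.7 in KO ns 6. The neutrophil marker sums of the last pair were 13760 and 10380. The log2 fold change with LPS was -1.33 ± 0.52 in KO (adjusted p = 0.0545) and -0.73 ± 0.59 in WT mice (adjusted p = 0.372). DESeq2 called the KO value (adjusted p = 0.0192). Without the samples that stand apart Rgs18 fell by 1.49 ± 0.54 in WT mice (adjusted p = 0.0233), and without WT ns 3 and WT ns 8 as well the value was -0.35 ± 0.44 (adjusted p = 0.528). In KO mice it was -1.02 ± 0.49 (adjusted p = 0.0827) without the samples that stand apart. The sum of 8 platelet markers was 32.5 to 39.1 CPM in WT ns and 10.4 to 16.5 in WT LPS, and 23.1 to 47.5 in KO ns and 6.02 to 18.3 in KO LPS. Of these markers, Gp6 was at 0 in 18 of 32 samples, Ppbp in 14, Gp1bb in 9 and Itga2b in 1. Neither sum's part in the Rgs18 values was tested. Rgs16 gave -0.83 ± 0.51 in KO and -1.25 ± 0.58 in WT mice and was not called.

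The 4 WT libraries of number 2 ran against the others in P2ry12, Saa3 and most responding members. Saa3, an acute-phase gene, was 1781 CPM in the library labelled WT ns 1, 2491 in that labelled WT ns 5, 1.59 in that labelled WT LPS 1 and 3.21 in that labelled WT LPS 6. In the fit it was 1.52 to 64.4 CPM in WT ns and 1418 to 9720 in WT LPS. P2ry12 was 481.0 and 927.4 CPM in the pair labelled ns and 4461 and 12150 in the pair labelled LPS. Rgs2 stood at 155.0 CPM in the library labelled WT ns 1 and 287.0 in that labelled WT ns 5, below 421.0 in the library labelled WT LPS 1 and 1277 in that labelled WT LPS 6. Rgs10 gave 115.1 and 170.9 CPM against 322.7 and 1207, and Gnas 73.3 and 25.9 against 118.7 and 58.9. Rgs18 was 1.99 and 4.63 CPM against 13.7 and 35.8, and Rgs14 52.4 and 9.51 against 44.5 and 16.1. Rgs1 was 19.9 and 24.96 CPM against 11.3 and 57.8. WT ns 5 and WT LPS 6 also stand apart, and within each pair the library labelled ns had the lower Rgs2, Rgs10, Gnas and Rgs18.

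With all libraries kept by label, 0 of the 10 members were called for LPS in WT mice, where 0% of 15857 genes were called and 0 of the members, and 3605 of all genes, had an unadjusted p under 0.05. The log2 fold changes there were -0.11 for Rgs2 (adjusted p = 0.88), -0.04 for Rgs10 (adjusted p = 0.967) and -0.48 for Gnas (adjusted p = 0.29). In KO mice 3 members, Rgs1, Rgs2 and Rgs10, still fell, beside 22.3% of genes.

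No member was called between KO and WT samples of the same treatment. At ns, 0 of 10 members were called by edgeR or by DESeq2, beside 0.0932% of all genes with edgeR. DESeq2 called 50 of 16088 genes. With either tool 3 members had an unadjusted p under 0.05, as had 1480 of 16088 genes with edgeR and 1895 with DESeq2. The 3 members were Rgs1 at a log2 fold change of 0.98 ± 0.40 (adjusted p = 0.496), Rgs10 at 0.74 ± 0.35 (adjusted p = 0.543) and Rgs14 at -0.91 ± 0.37 (adjusted p = 0.498). Without the samples that stand apart, where 0.348% of genes were called, they were 0.56 ± 0.38, 0.24 ± 0.12 and -0.59 ± 0.21, and Rgs14 was -0.14 ± 0.15 with WT ns 3 and WT ns 8 left out too.

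After LPS, 0 members were called by either tool, beside 0.0746% of all genes with edgeR (0.28% without the samples that stand apart). DESeq2 called 57 of 16088 genes. No member had an unadjusted p under 0.05 with edgeR, and 1 had with DESeq2, beside 1019 and 1239 of 16088 genes. Rgs18 had the largest difference at -1.08 ± 0.55 (adjusted p = 0.833), and -0.42 ± 0.51 without the samples that stand apart. For the difference between genotypes in the effect of LPS 0 members were called by either tool. With edgeR 0% of genes were called (0.00622% without the samples that stand apart), and with DESeq2 3 of 16088. Rgs1, described above, was the member with an unadjusted p under 0.05, beside 708 of 16088 genes with edgeR.

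No member was called between KO and WT animals of the sex experiment either. Averaged over the sexes, 0 of 10 members were called, beside 0.432% of 31709 genes. An unadjusted p under 0.05 was reached by 3 members, Rgs1, Rgs14 and Rgs18, and by 2860 of all genes. In males 0 were called beside 0.00946% of genes, with 1, Rgs14, and 2171 of all genes at an unadjusted p under 0.05. In females 0 were called beside 0.164%, and the sex by genotype interaction had 0 called beside 0%, with 0 members at an unadjusted p under 0.05 in each. Of all genes, 1655 in females and 879 in the interaction had such a p. DESeq2 called 0 of 10 in all 4 comparisons. Of 31709 genes it called 358 averaged over the sexes, 27 in males, 210 in females and 0 in the interaction. With so few genes called in all, 0 of 10 is no result about the family. The same holds for the comparisons of genotype in the LPS experiment. The median log2 fold change of the 10 members, averaged over sexes, was -0.03 and that of all genes -0.01.

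**Figure D3:**
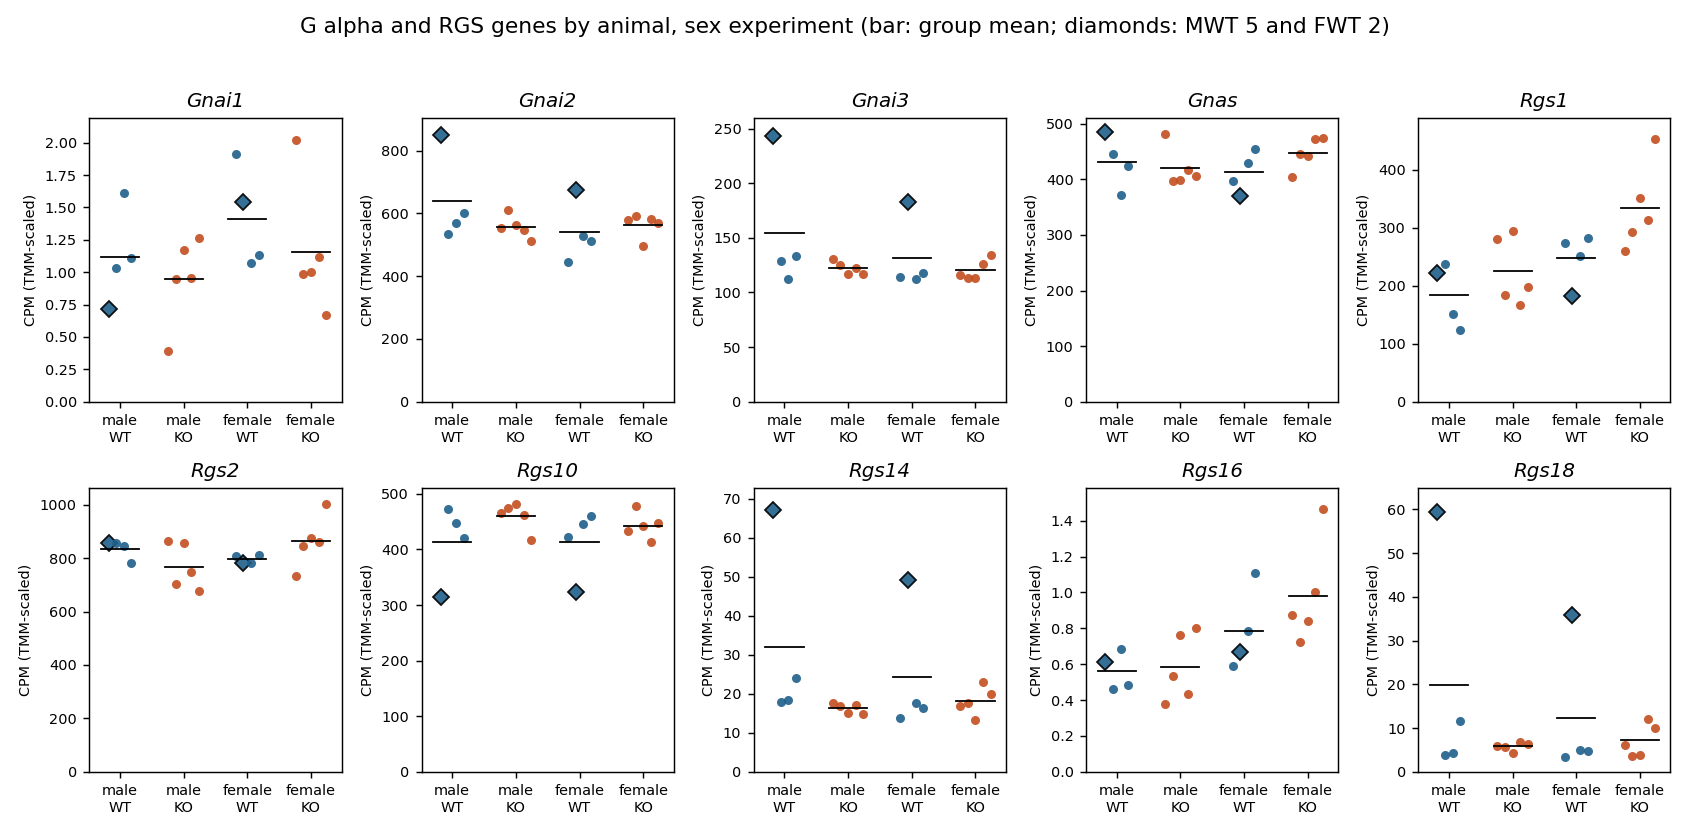
Level of each member in each of the 18 animals of the sex experiment, in TMM-scaled CPM on linear axes, by sex and genotype. MWT 5 and FWT 2 are the highest animals of their groups for Gnai2, Gnai3, Rgs14 and Rgs18 and the lowest for Rgs10.

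Rgs18 was 3.86 CPM in MWT 1, 4.24 in MWT 3, 11.5 in MWT 4 and 59.5 in MWT 5, and 5.85, 5.64, 4.39, 6.80 and 6.27 in MKO 1 to MKO 5. It was 3.32 in FWT 1, 35.8 in FWT 2, 4.97 in FWT 3 and 4.803 in FWT 5, and 6.23, 3.64, 3.80, 12.1 and 10.1 in FKO 1 to FKO 5. A single animal in each WT group stood far above all the rest, and the others of all 4 groups overlapped. The log2 fold change of KO against WT averaged over sexes was -1.27 ± 0.59 (adjusted p = 0.552), with -1.78 ± 0.84 in males and -0.77 ± 0.83 in females. Without MWT 5 and FWT 2, left out after seeing their levels, it was 0.27 ± 0.31, of the other sign.

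Rgs14 was 17.8 CPM in MWT 1, 18.4 in MWT 3, 24.2 in MWT 4 and 67.2 in MWT 5, and 17.6, 16.9, 15.1, 17.1 and 14.7 in MKO 1 to MKO 5. It was 13.9 in FWT 1, 49.1 in FWT 2, 17.7 in FWT 3 and 16.3 in FWT 5, and 16.8, 17.7, 13.3, 22.97 and 20.0 in FKO 1 to FKO 5. The same pair of animals stood out. The log2 fold change averaged over sexes was -0.70 ± 0.29 (adjusted p = 0.518), and -0.06 ± 0.10 without them. In males it was -0.97 ± 0.41 and in females -0.42 ± 0.41.

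MWT 5 and FWT 2 differed from the other 16 animals in more members. Gnai3 was 242.9 and 183.2 CPM in them and 111.9 to 134.0 in the others. Gnai2 was 848.7 and 674.7 against 444.4 to 612.2. Rgs10 was lower, at 313.7 and 322.9 against 413.2 to 482.0. Monocyte markers summed to 4520 and 2591 CPM against 123.7 to 726.8, and microglial markers to 26920 and 27510 against 32170 to 44880. The microglial sum includes P2ry12, which is low in KO animals. The part of these cell markers in the member levels was not tested.

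**Figure D4:**
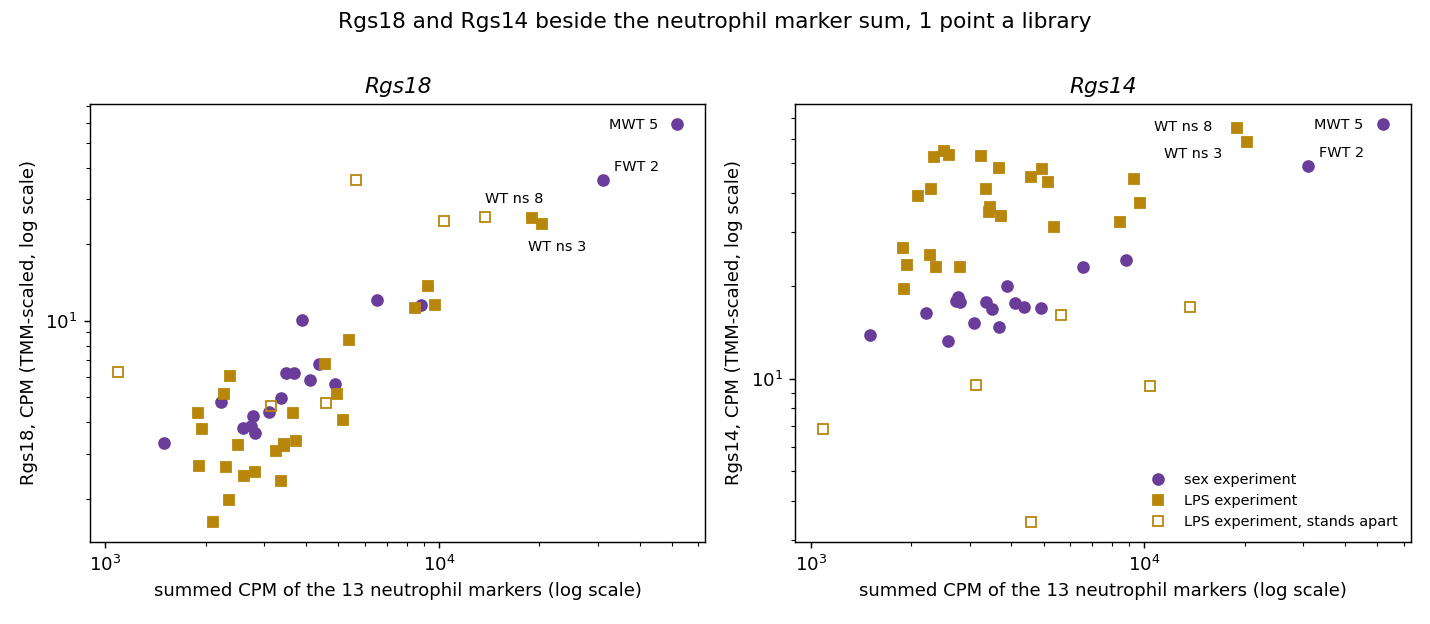
Rgs18 and Rgs14 level in TMM-scaled CPM against the summed CPM of 13 neutrophil markers, both axes log scale, 1 point per library of each experiment. MWT 5 and FWT 2 at 51850 and 31080, and WT ns 3 and WT ns 8 at 20380 and 18970, hold the highest marker sums, and samples that stand apart hold low Rgs14.

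Rgs1 was 237.1 CPM in MWT 1, 150.8 in MWT 3, 123.6 in MWT 4 and 222.4 in MWT 5, and 281.3, 184.2, 294.0, 166.9 and 198.3 in MKO 1 to MKO 5. It was 273.6, 182.7, 252.1 and 282.5 in FWT 1, 2, 3 and 5, and 260.4, 292.8, 352.2, 313.8 and 453.9 in FKO 1 to FKO 5. WT and KO overlapped in both sexes. The log2 fold change averaged over sexes was 0.36 ± 0.16 (adjusted p = 0.535), and 0.36 ± 0.18 without MWT 5 and FWT 2. FKO 5, with the highest Rgs1, had an immediate early gene sum of 9918 CPM within a range of 4286 to 10270, and MWT 5, at the top of that range, had Rgs1 at 222.4. The part of these genes was not tested.

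The other members had small log2 fold changes in the sex experiment. Averaged over sexes, the log2 fold changes were -0.07 ± 0.09 for Gnai2, -0.23 ± 0.13 for Gnai3, 0.04 ± 0.06 for Gnas, 0.00 ± 0.06 for Rgs2 and 0.13 ± 0.08 for Rgs10. Without MWT 5 and FWT 2 they were 0.08 ± 0.06 for Gnai2, 0.02 ± 0.05 for Gnai3 and 0.02 ± 0.05 for Rgs10. With all animals, those for Gnai1 and Rgs16 were -0.25 ± 0.24 and 0.19 ± 0.21. Gnas ranged from 371.0 to 484.8 CPM over the 18 animals and Rgs2 from 675.4 to 1004.

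Other genes of the pathway were taken from lists of 12 further alpha subunits, 17 beta and gamma subunits, 17 other RGS genes and 13 regulators such as arrestins and receptor kinases. Of the 59 listed, 39 were tested in the LPS experiment. With LPS 8 fell and 1 rose in KO mice, beside 28.5% of all genes called, and 12 fell and 0 rose in WT mice, beside 30.7%. Leaving out the samples that stand apart gave 16 down and 4 up in KO and 15 down and 4 up in WT mice, beside 54.7% and 54.1%. These counts are near the share over all genes and are no result about the pathway.

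Gna14, an alpha subunit of the Gq class, had the largest change of these lists, with -3.84 ± 0.52 on the log2 scale in KO and -3.83 ± 0.59 in WT mice. The alpha subunits Gnaz, of the Gi class, and Gna12 fell by 1.64 ± 0.42 and 0.93 ± 0.27 in KO and by 1.63 ± 0.49 and 1.25 ± 0.31 in WT mice. Among RGS genes, Rgs11 fell, with -1.73 ± 0.46 in KO and -1.95 ± 0.53 in WT mice, as did Rgs12 with -1.09 ± 0.32 and -1.53 ± 0.37. Gnb5, the beta subunit that partners with the Rgs11 class, fell by 1.17 ± 0.18 and 0.94 ± 0.21, and the gamma subunit Gngt2 by 0.79 ± 0.21 and 0.87 ± 0.24. Gng3 rose by 0.77 ± 0.28 in KO mice, a change that did not pass without the samples that stand apart (0.62 ± 0.29, adjusted p = 0.0788). Arrb1, an arrestin, fell by 1.19 ± 0.42 and Gpsm1, which binds inactive Gi subunits, by 1.19 ± 0.46 in WT mice, and in KO mice their changes were -0.60 ± 0.36 (adjusted p = 0.237) and -0.78 ± 0.39 (adjusted p = 0.15). With those samples left out both fell in both genotypes, Arrb1 by 0.75 ± 0.12 in KO and 0.96 ± 0.13 in WT mice and Gpsm1 by 1.00 ± 0.11 and 1.01 ± 0.12. The other 7 named here that fell also fell in both genotypes in that fit, from Gna14 at -3.85 ± 0.53 in KO and -4.07 ± 0.58 in WT mice to Gngt2 at -0.72 ± 0.16 in KO and Gnb5 at -0.97 ± 0.15 in WT mice. Of the genes that rose in that fit, Grk6 of the regulators had 0.73 ± 0.24 in KO mice (adjusted p = 0.0135). Rgs5 of the other RGS genes had 1.08 ± 0.43 in WT mice (adjusted p = 0.0386). None of the 39 was called between KO and WT in either treatment or in the interaction, and none of 56 tested in the sex experiment.

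The genes most alike to each member were sought over the 18 animals, as Pearson's r of deviations from the group mean, and are given as a description. Rgs18 went with Slc25a24 (r = 0.991) and Ptpn7 (0.987), and Rgs14 with Prr13 (0.992) and Dck (0.99). Rgs10 went with Ctsf (0.973), Gnai3 with Rab6a (0.994) and Ero1a (0.986), and Gnai2 with Ppp1ca (0.969) and Gpsm3 (0.969). Rgs1 was most like Dnajc21 (0.929) and Gem (0.924), Rgs2 like Trim17 (0.915) and Cept1 (0.89), Gnas like Rad50 (0.874), Gnai1 like Il1rapl2 (0.938) and Cadm2 (0.931), and Rgs16 like Tex14 (0.764) and Osbpl3 (0.749). The animals share library depth and composition, and MWT 5 and FWT 2 weigh on r. Over the 16 other animals r was 0.959 for Rgs18 with Slc25a24 and 0.945 for Rgs14 with Prr13. Over the 24 samples of the LPS fit that do not stand apart, r was 0.929 and 0.852 for these pairs, but -0.172 for Rgs1 with Dnajc21 and -0.396 for Gnas with Rad50.

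Per the file headers, the members lie on GRCm39 at these places. Rgs2 is on chromosome 1 at 143875076 to 143879887, Rgs1 at 144120407 to 144124862 and Rgs18 at 144628430 to 144651165, all on the minus strand of 1 cluster, and Rgs16 is on the plus strand at 153616099 to 153621212. Rgs10 lies on chromosome 7 at 127975345 to 128020993 (minus) and Rgs14 on chromosome 13 at 55517269 to 55532504 (plus). Gnai2 lies on chromosome 9 at 107491324 to 107512542, Gnai3 on chromosome 3 at 108014591 to 108053468 and Gnai1 on chromosome 5 at 18470133 to 18565411, all minus, and Gnas on chromosome 2 at 174126113 to 174188537 (plus). Other genes overlap 3 of these spans, and reads of overlapping genes cannot be told apart where counting ignored strand. Counts of Gm3527 were 0% to 18.4% of those of Gnai1, of Gm53518 0.807% to 1.42% of those of Gnai2, and of Gnasas1 with Gm30189 0.16% to 0.33% of those of Gnas.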

How the data were processed

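For each experiment the authors deposited read counts by gene in 1 table, as whole numbers without normalization. Per the submitters' processing notes, STAR 2.6.1, featureCounts of Subread, FastQC, DESeq2 and the build GRCm39 were used, with no role given for each. Per the labels, polyadenylated RNA was sequenced. In the table of the sex experiment the length of a gene is its whole span, so members were compared per length only in the LPS experiment, over exons of GENCODE vM21 (GRCm38). Where counting ran over that span, levels and r values of the sex experiment include reads from introns, whose share was not tested. The labels also list 6 repeat libraries, not analysed here.

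Counts were filtered with filterByExpr (31709 and 16088 genes tested), scaled by TMM and fitted with edgeR 4.0.16 in R 4.3.3 (quasi-likelihood F test, robust), 1 model per experiment, with the library set as a covariate in the LPS experiment. The Benjamini-Hochberg adjustment ran over all genes tested, and a gene is called at an adjusted p under 0.05. The biological coefficient of variation was 35.3% and 40.1%, and 22.7% without the samples that stand apart. All 10 members are named in every comparison. Of the other lists, up to 10 called genes with the largest log2 fold change per comparison could be named. Members and lists were chosen with earlier results of these data known, and no list is independent evidence. Scripts were tested on simulated data. Alternatives were DESeq2 1.42.0, RLE scaling, no filter, other choices of libraries, a replicate block and each animal left out. Likeness of genes was sought at a mean of at least 10 CPM. Its r for the LPS experiment was taken without the samples that stand apart, a departure from the plan. Up to 2 genes are named for each member, and some are not reported here.

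Same-numbered samples deviated with a mean r of 0.126 in the sex experiment (-0.0544 to 0.354) and 0.196 in the LPS experiment (-0.226 to 0.789). For samples of different numbers the mean r was lower, at -0.0296 (-0.411 to 0.267) and 0.0843 (-0.586 to 0.73), with overlapping ranges. These values do not settle whether the numbers pair samples. The fits did not pair them, and a replicate block is given as an alternative.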

Additional observations from a re-analysis of the deposited data

Results flagged for a closer look

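The highest or lowest sample of a group lay apart from the others by Dixon's 95% criterion in 27 cases among 80 combinations of a member and a group. Chance gives about 1 in 20 for normal values and independent cases. The same libraries recur here across members, so the cases are not independent and their number is no test of chance.

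MWT 5 was the highest of its group for Gnai3 (242.9 CPM), Rgs14 (67.2) and Rgs18 (59.5), and FWT 2 was the highest of its group for the same genes (183.2, 49.1 and 35.8 CPM). These animals had the highest neutrophil and monocyte marker sums of the sex experiment, and their part in these levels was not tested.

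WT LPS 7 was highest for Gnai3 (399.7 CPM), Rgs2 (422.2), Rgs10 (359.8) and Rgs18 (25.5) and lowest for Rgs14 (17.1). KO ns 6 was highest for Gnai1 (0.986 CPM), Gnai3 (356.0), Rgs1 (116.2), Rgs2 (1270), Rgs10 (1603) and Rgs18 (24.7). KO LPS 5 was highest for Gnai3 (246.3 CPM), Rgs2 (446.3) and Rgs10 (323.7) and lowest for Gnai2 (143.0), Gnas (17.7) and Rgs14 (3.41). All of these stand apart on the first principal component and have high mitochondrial shares, and the part of either was not tested.

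In KO LPS 7, Rgs1 was the highest of its group at 41.0 CPM. FKO 3 was lowest for Gnai2 at 496.4 CPM, MKO 1 highest for Gnas at 481.8 and MWT 4 lowest for Rgs2 at 781.6.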

How the results depend on the processing

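Over 90 pairs of a member and a comparison, the sign of the log2 fold change differed in some alternative for 28 pairs, and in a fit that left out 1 animal for 15. This held for 93 of 1570 values, and 0 of those were called in either fit. For KO against WT averaged over sexes, leaving out MWT 5 and FWT 2 gave 0.082 for Gnai2, 0.024 for Gnai3, 0.27 for Rgs18 and 0.0032 for Rgs2. Rgs2 was 0.013 with no filter and 0.0071 with a replicate block. In females, without both animals, Rgs14 was 0.18 and Rgs18 0.72. Leaving out 1 animal at a time gave -0.11 to 0.018 for Gnai2 and -0.032 to 0.016 for Rgs2 averaged over sexes, -0.61 to 0.18 for Rgs14 and -1.08 to 0.72 for Rgs18 in females, and -0.12 to 1.15 for Rgs14 and -0.58 to 2.50 for Rgs18 in the sex by genotype interaction. With LPS in KO mice, Gnai1 was -0.36 with number 2 left out of every group, and Gnai3 was 0.0097 without the samples that stand apart, 0.033 by label without them and 0.022 without WT ns 3 and WT ns 8 too. In WT mice Rgs14 was -0.025 in library set 2 and Rgs18 0.16 by label.

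The number of members called with LPS was 0 in KO and 0 in WT mice in library set 2, where 8 members were tested and 721 and 547 of 16533 genes were called, 0 in WT mice by label, and 5 and 6 without the samples that stand apart, WT ns 3 and WT ns 8. The cause was not tested. With a replicate block, in which WT LPS 8 and WT LPS 9 were kept apart, the members called were 4 in KO and 3 in WT mice with LPS, beside 5700 and 6341 of 16133 genes, the fourth being Rgs14 (0.65, adjusted p = 0.0359), and 0 in every other comparison. DESeq2 and RLE scaling added Rgs18 in KO mice (adjusted p = 0.0192 and 0.0475). No filter lost Gnas (adjusted p = 0.0558) and no set covariate lost Rgs10 (adjusted p = 0.0531) in WT mice. The 4 alternatives without certain samples were chosen after seeing the data. The main fit, too, left out the WT libraries of number 2 with earlier results of these data known. Gnai1 and Rgs16 are limited by depth in the LPS experiment.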
